A study of Mus musculus with 13 samples.

Results

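Slc38a5 belongs to a set of 10 amino acid transporter genes examined here in mouse lung RNA: Slc38a1, Slc38a2, Slc38a4, Slc38a5, Slc7a2, Slc7a5, Slc7a11, Slc3a2, Slc1a4 and Slc1a5. The set was taken by gene symbol from the 20270 genes of the count and TPM tables, and all 10 members were found and passed the filter on low counts, as did 15315 genes in total. The members were chosen by the levels of Slc38a5, which was low after bleomycin and higher in the knockout in these same libraries. Slc38a5 is therefore described without a test, and the other 9 members were tested.

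Cells take up amino acids through families of membrane carriers that differ in what they carry and in how transport is driven. The SLC38 family holds sodium-coupled carriers of small neutral amino acids: Slc38a1, Slc38a2 and Slc38a4 carry out system A transport, and Slc38a5 carries out system N transport of glutamine, asparagine and histidine. Slc1a4 and Slc1a5 are sodium-dependent exchangers of neutral amino acids, Slc1a5 being a main route for glutamine. Slc7a5 exchanges large neutral amino acids such as leucine, and Slc7a11 exchanges cystine for glutamate and so feeds glutathione synthesis. Both are light chains that reach the cell surface bound to the heavy chain encoded by Slc3a2. Slc7a2 carries cationic amino acids, among them arginine, the substrate of nitric oxide synthase and arginase. Several of these genes are targets of Atf4, the transcription factor of the amino acid response.

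The study compared lungs of control, wildtype (WT) bleomycin and CB1R KO bleomycin mice 14 days after dosing, which asks what loss of the cannabinoid receptor CB1R changes in a lung with bleomycin injury. Control (4 libraries; replicates 3, 21, 24, 26) and WT bleomycin (5 libraries; replicates 4, 2, 5, 4-B2, 7) came from male C57BL/6J mice bought at 13 weeks of age. The labels do not say what the suffix of 4-B2 stands for, or whether replicates 4 and 4-B2 are different mice; n counts libraries here, and p-values measure the spread between them. CB1R KO bleomycin mice (n = 4; replicates 8 to 11) carried Cnr1-/-, which deletes the receptor in every cell, on a C57Bl/6J background. Their age, and whether they were littermates of the other mice, are not given in the sources used here. Both bleomycin groups received 1 U per kg by oropharyngeal aspiration, and saline was the vehicle in control groups. RNA came from the lower right lobe, and no CB1R KO lung free of bleomycin was analysed here.

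RefSeq promoter windows of build GRCm38.p6 were at hand for 6 of the 10 members, namely Slc38a2, Slc38a4, Slc38a5, Slc7a11, Slc3a2 and Slc1a4, and none for Slc38a1, Slc7a2, Slc7a5 and Slc1a5. A window runs from 250 bases before to 50 bases after the start site. It was searched on both strands for TGATGNAA, the core of the C/EBP-ATF response element (CARE) that Atf4 binds, for TGACNNNGC, the core of the antioxidant response element (ARE), and for the E-box CACGTG. Over 32851 windows of that length, with those of 1 chromosome left out, 3.97% held the CARE letters, 12.4% the ARE letters and 7.15% the E-box. The window of Slc7a11 held 2 CARE matches, at 66 and 47 bases before the start site, and that of Slc1a4 held 1, which began 4 bases before it. Slc38a5 held no CARE match and 1 E-box, Slc38a2 held 1 ARE match, and the windows of Slc3a2 and Slc38a4 held none of these motifs. The 3 sequences below, 5′ to 3′ on the strand of the gene, show the gene the set was built around, the member with the steepest rise after bleomycin, and a member with a CARE match that did not pass the test. They run from 250 bases before to 10 bases after the start site. Capitals mark the E-box in Slc38a5 and the CARE matches in Slc7a11 and Slc1a4. The windows lie on GRCm38.p6 at chrX:8271131-8271390 (plus strand), chr3:50443604-50443863 (minus strand) and chr11:20332704-20332963 (minus strand).
Slc38a5: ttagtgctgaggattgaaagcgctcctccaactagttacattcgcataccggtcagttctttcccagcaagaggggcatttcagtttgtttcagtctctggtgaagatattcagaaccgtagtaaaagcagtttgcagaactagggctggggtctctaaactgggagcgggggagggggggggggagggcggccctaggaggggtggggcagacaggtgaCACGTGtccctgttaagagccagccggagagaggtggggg
Slc7a11: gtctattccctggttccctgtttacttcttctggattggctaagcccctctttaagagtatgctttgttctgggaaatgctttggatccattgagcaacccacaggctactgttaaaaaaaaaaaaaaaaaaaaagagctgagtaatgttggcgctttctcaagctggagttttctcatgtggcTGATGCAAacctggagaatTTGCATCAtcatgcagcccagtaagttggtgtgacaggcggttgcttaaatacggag
Slc1a4: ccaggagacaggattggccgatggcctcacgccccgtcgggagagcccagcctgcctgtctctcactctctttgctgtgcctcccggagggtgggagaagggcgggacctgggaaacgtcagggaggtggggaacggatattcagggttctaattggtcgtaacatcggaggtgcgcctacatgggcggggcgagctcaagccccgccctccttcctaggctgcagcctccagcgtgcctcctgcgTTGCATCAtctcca
A match describes letters in the window and no binding was measured.

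Total estimated counts lay between 14615904 and 16662580 in 12 libraries and reached 53463884 in CB1R KO replicate 11. Levels are given as CPM, the counts scaled to a common library size, with TMM factors, and as TPM, which is also scaled for transcript length, where genes are compared with each other. Markers of type II cells, a cell type of the lung alveoli, were high, and their 6 genes summed to between 17700 and 34200 TPM in every library. Cnr1 was counted at 2.47 to 5.63 CPM in the libraries labelled CB1R KO, 3.46 to 6.97 CPM in WT bleomycin and 1.62 to 4.1 CPM in control, so the counts do not check the genotype, and the group names rest on the labels. Titles of Control replicate 26 and WT bleomycin replicates 4-B2 and 7 are written with capitals and the others in lower case, and the labels do not say why. In whole lung tissue, fewer cells of a type and less RNA per cell cannot be told apart.

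Slc38a5 was lower in WT bleomycin lungs than in either other group, and its level in CB1R KO bleomycin lungs reached into the control range. Its CPM was 37, 38.9, 34.5 and 30.4 in Control replicates 3, 21, 24 and 26. WT bleomycin replicates 4, 2, 5, 4-B2 and 7 had 15.6, 15.1, 17.6, 12.9 and 14.9 CPM, all below every control library. CB1R KO replicates 8, 9, 10 and 11 had 32, 33.4, 22.7 and 22.5 CPM, all above every WT bleomycin library, and the higher pair lay within the control range. Group means were 35.2 ± 3.68 CPM in control (SD, n = 4), 15.2 ± 1.68 in WT bleomycin (SD, n = 5) and 27.6 ± 5.87 in CB1R KO bleomycin (SD, n = 4). The fitted log2 fold change was -1.21 (standard error 0.13) for WT bleomycin with control, 0.85 (standard error 0.13) for CB1R KO with WT bleomycin and -0.36 (standard error 0.14) for CB1R KO bleomycin with control. These values chose the gene, so they are a description. Among the libraries with lower-case titles the first 2 differences were -1.19 and 0.77.

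**Figure D1:**
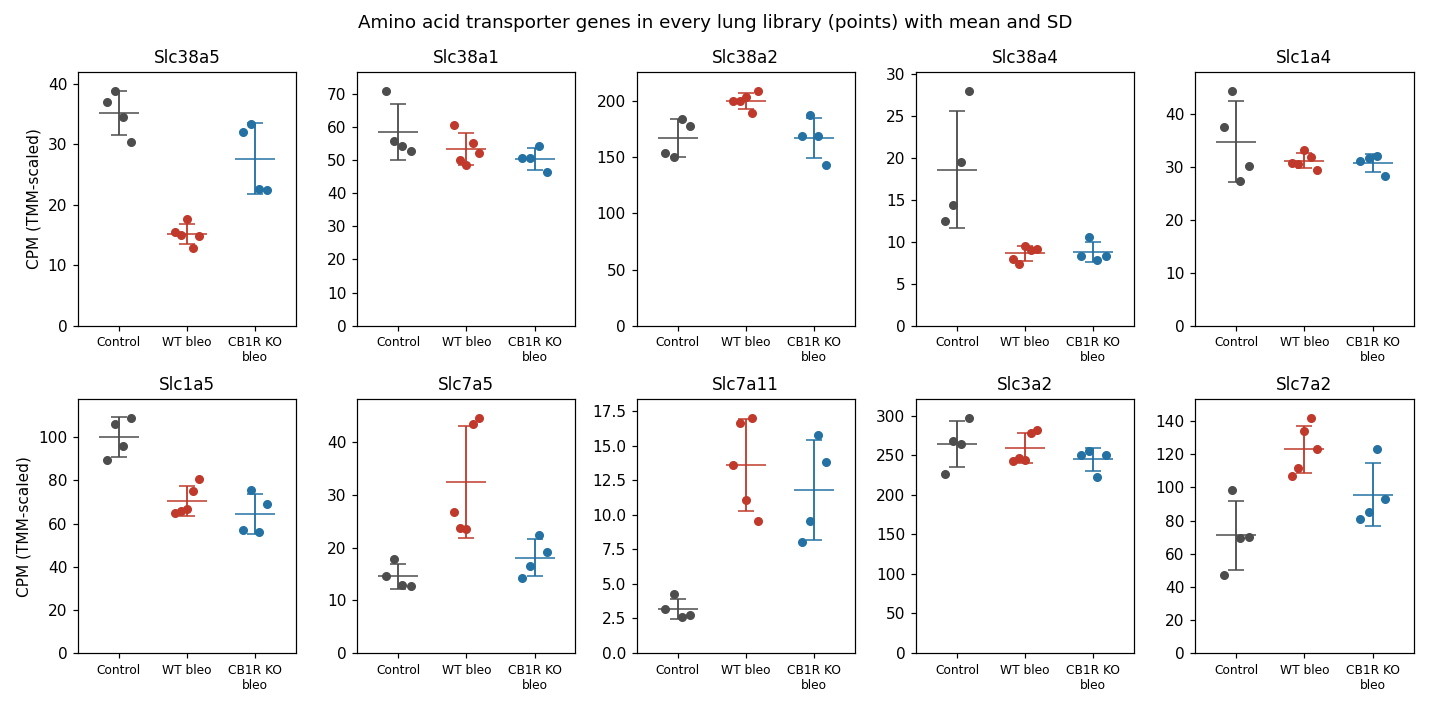
Each panel plots the CPM (linear axis from 0) of 1 member in every library as points, with the group mean and SD as bars, for Control (4), WT bleomycin (5) and CB1R KO bleomycin (4). Slc38a5 is low in the 5 WT bleomycin libraries, Slc7a11 is high in both bleomycin groups, and Slc7a5 is highest in 2 WT bleomycin libraries at 43.4 and 44.6 CPM.

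Among the 9 other members, WT bleomycin lungs had 4 higher and 2 lower than control with the adjusted p below 0.05 (quasi-likelihood test in edgeR, Benjamini-Hochberg over all genes tested). Of all genes tested, 25% were higher and 23.9% lower in that comparison. Slc38a2, Slc7a2, Slc7a5 and Slc7a11 rose, and Slc38a4 and Slc1a5 fell. The CPM of both groups did not overlap for these 6 members, beside 40.3% of all genes. The median log2 fold change of the 9 members was -0.03, against -0.01 over all genes.

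Between CB1R KO and WT bleomycin lungs, 0 of the 9 members passed the same edgeR test, where 0.359% of all genes were higher and 0.62% lower. An unadjusted p under 0.05 was found for 3 of the 9 members and for 17% of all genes. DESeq2 on the same counts called 1 member, Slc7a5, and 4.22% of all genes. Limma called 0 members, with 0.712% of all genes called on log2(TPM + 1) and 0.607% on log2(TPM + 0.1). Slc38a2 and Slc7a5 were lower in every CB1R KO library than in every WT bleomycin library, which held in either direction for 5.6% of all genes. The median log2 fold change of the 9 members was -0.13, against 0.00 over all genes. CB1R KO bleomycin lungs differed from control in 3 members, with Slc7a11 higher and Slc38a4 and Slc1a5 lower, where 19% of all genes were higher and 16.3% lower. These 3 members did not overlap between the groups, beside 33.5% of all genes. Each of the 3 comparisons shares a group with the other two.

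**Figure D2:**
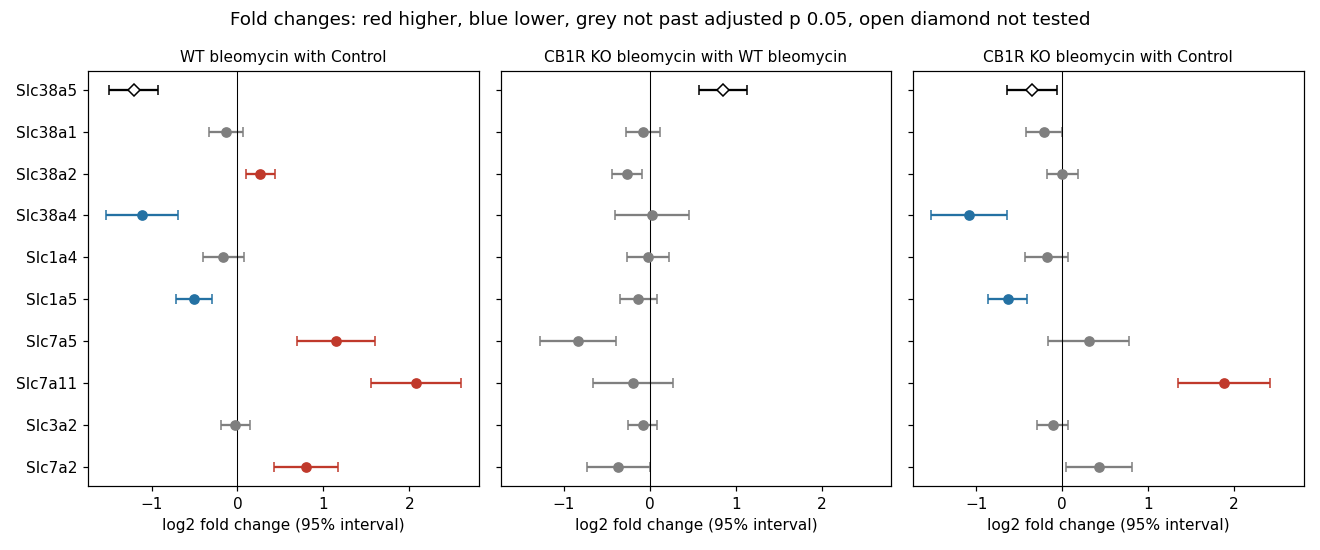
Log2 fold changes (points) with 95% intervals (bars) of the 10 members in 3 comparisons. Red and blue points passed an adjusted p of 0.05 as higher or lower, and grey points did not. The open diamond is Slc38a5, which was not tested. Its bars rest on the values that chose the gene and are no test of it. The second panel holds no coloured point.

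The system A carriers did not move together after bleomycin. Slc38a2, the system A gene that cells induce when amino acids run short, had 154, 150, 184 and 178 CPM in Control replicates 3, 21, 24 and 26 and 200, 200, 203, 189 and 209 CPM in WT bleomycin replicates 4, 2, 5, 4-B2 and 7. Every WT bleomycin value exceeded the control range, by a small step (log2 fold change 0.27, standard error 0.08, adjusted p = 0.0128, edgeR). CB1R KO replicates 8 to 11 had 169, 187, 169 and 143 CPM, all below the lowest WT bleomycin library and overlapping control. The difference from WT bleomycin was -0.26 on the log2 scale (95% interval -0.43 to -0.09, unadjusted p = 0.00494, adjusted p = 0.122, edgeR). Slc38a5 stood at 61.2% ± 18.8 of the TPM of Slc38a2 in control (SD, n = 4), at 20.9% ± 2.51 in WT bleomycin (SD, n = 5) and at 47.7% ± 5.93 in CB1R KO bleomycin (SD, n = 4).

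Slc38a4, a system A carrier known best from liver, had 12.5, 14.4, 19.5 and 28 CPM in the control replicates in the same order. It fell to 7.98, 7.35, 9.56, 9 and 9.19 CPM in WT bleomycin, with every library below every control (log2 fold change -1.11, standard error 0.20, adjusted p = 0.000332, edgeR). The control libraries were themselves spread widely, with the highest in replicate 26, and leaving out 1 library at a time gave values from -1.26 to -0.85. CB1R KO libraries had 8.37, 10.6, 7.83 and 8.29 CPM and were also below control (-1.09, standard error 0.21, adjusted p = 0.00111, edgeR). Slc38a4 did not separate CB1R KO from WT bleomycin (0.02, 95% interval -0.41 to 0.45, adjusted p = 0.968, edgeR). Slc38a1 ranged from 52.8 to 70.9 CPM in control, 48.4 to 60.5 in WT bleomycin and 46.3 to 54.3 in CB1R KO bleomycin, and passed the test in none of the 3 comparisons (lowest adjusted p = 0.0995, edgeR, for CB1R KO bleomycin with control).

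Of the exchangers of neutral amino acids, Slc1a5 fell and Slc1a4 did not pass the test. Slc1a5 had 89.3, 106, 96.2 and 109 CPM in control and 64.7, 66, 66.9, 75.3 and 80.7 CPM in WT bleomycin, with no overlap (log2 fold change -0.50, standard error 0.10, adjusted p = 0.000709, edgeR). CB1R KO libraries had 57.2, 75.4, 56.3 and 68.9 CPM, again all below control (-0.64, standard error 0.10, adjusted p = 0.000359, edgeR) and overlapping WT bleomycin (-0.13, 95% interval -0.34 to 0.08, adjusted p = 0.528, edgeR). Slc1a5 was thus lower than control in both bleomycin groups. Slc1a4 had 27.3 to 44.4 CPM in control, 29.4 to 33.2 in WT bleomycin and 28.3 to 32 in CB1R KO bleomycin. Its difference between WT bleomycin and control was -0.16 (95% interval -0.41 to 0.08, adjusted p = 0.255, edgeR). On the TPM scale Slc1a4 stood at 24.1% ± 5.68 of Slc1a5 in control (SD, n = 4), 30.7% ± 3.58 in WT bleomycin (SD, n = 5) and 33.6% ± 5.53 in CB1R KO bleomycin (SD, n = 4).

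The heavy chain Slc3a2 was level across the groups, and its light chain partners were not. Slc3a2 ranged from 226 to 297 CPM in control, 243 to 282 in WT bleomycin and 223 to 255 in CB1R KO bleomycin. Its log2 difference between WT bleomycin and control was -0.03 (95% interval -0.20 to 0.14, adjusted p = 0.791, edgeR), a value whose sign turned with TPM in place of counts.

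Slc7a11, the cystine and glutamate exchanger, was the member with the largest fold after bleomycin. It had 3.15, 4.27, 2.63 and 2.77 CPM in Control replicates 3, 21, 24 and 26, from 41.4 or more estimated counts in each. WT bleomycin replicates had 13.6, 16.6, 11.1, 17 and 9.56 CPM and CB1R KO replicates 8.05, 9.53, 15.8 and 13.8 CPM. Both bleomycin groups lay above every control library, and they overlapped each other. The gene rose 4.22-fold in WT bleomycin (log2 fold change 2.08, standard error 0.25, adjusted p = 1.07e-05, edgeR) and 3.69-fold in CB1R KO bleomycin against control (1.88, standard error 0.25, adjusted p = 7.28e-05, edgeR). Between the bleomycin groups the difference was -0.19 (95% interval -0.66 to 0.27, adjusted p = 0.691, edgeR). Its promoter window holds the CARE pair shown above. Against the heavy chain, Slc7a11 made up 0.198% ± 0.0539 of the TPM of Slc3a2 in control (SD, n = 4), 0.823% ± 0.2 in WT bleomycin (SD, n = 5) and 0.761% ± 0.254 in CB1R KO bleomycin (SD, n = 4).

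Slc7a5, the leucine exchanger that supplies mTORC1 signalling, had 14.7, 17.9, 13 and 12.8 CPM in control. WT bleomycin replicates 4, 2 and 5 had 26.7, 23.8 and 23.6 CPM, and replicates 4-B2 and 7, whose titles carry capitals, had 43.4 and 44.6 CPM. The gene rose in WT bleomycin against control (log2 fold change 1.15, standard error 0.21, adjusted p = 0.00047, edgeR). With only the libraries of lower-case titles the rise was 0.70 (adjusted p = 0.00581, edgeR). CB1R KO replicates had 14.2, 16.6, 22.3 and 19.1 CPM, each below the lowest WT bleomycin library and overlapping control. The difference from WT bleomycin was -0.84 (95% interval -1.28 to -0.40, unadjusted p = 0.00111, adjusted p = 0.0671, edgeR), just outside the threshold. Its adjusted p was 0.033 without CB1R KO replicate 10, where 4.24% of all genes were called, 0.00471 with DESeq2, and 0.328 with only lower-case titles, where the difference was -0.45. Slc7a5 stood at 2.41% ± 0.482 of the TPM of Slc3a2 in control (SD, n = 4), 5.25% ± 1.31 in WT bleomycin (SD, n = 5) and 3.12% ± 0.743 in CB1R KO bleomycin (SD, n = 4).

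Slc7a2, the carrier of arginine and other cationic amino acids, had 47.1, 98.3, 69.2 and 69.8 CPM in control and 107, 112, 134, 142 and 123 CPM in WT bleomycin. It rose 1.74-fold, and the lowest WT bleomycin value was above the highest control (log2 fold change 0.80, standard error 0.17, adjusted p = 0.00165, edgeR). CB1R KO replicates 8, 9 and 11 had 81.2, 85.3 and 92.8 CPM, between the WT bleomycin range and most of the controls, and replicate 10 had 123 CPM, within the WT bleomycin range. Neither CB1R KO comparison passed the edgeR test (-0.37 with WT bleomycin, adjusted p = 0.291, and 0.43 with control, adjusted p = 0.079). Without Control replicate 21, the highest control, the difference from control was 0.63 and passed (adjusted p = 0.0108, edgeR). In the annotation at hand, which is of another build, exons of Slc7a2 overlap a non-coding gene on the opposite strand, and the library kit is not stated to keep strand.

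Per unit of length, Slc3a2 had the highest level of the members in every group, at 257 ± 19.9 TPM in control (SD, n = 4), 262 ± 16.2 in WT bleomycin (SD, n = 5) and 259 ± 13.5 in CB1R KO bleomycin (SD, n = 4). Slc1a5 at 54.5 ± 3.96 TPM and Slc38a2 at 52 ± 4.73 TPM followed in control and did not differ beyond their spread (SD, n = 4). In WT bleomycin Slc38a2 at 64.2 ± 3.44 TPM stood above Slc1a5 at 39.4 ± 3.05 TPM (SD, n = 5). Slc38a5 was the fourth in control at 31.2 ± 6.93 TPM (SD, n = 4) and again the fourth in CB1R KO bleomycin at 26.2 ± 3.11 TPM (SD, n = 4). In WT bleomycin it was the sixth at 13.5 ± 1.99 TPM (SD, n = 5), behind Slc7a2 at 26.8 ± 3.07 and level with Slc7a5 at 13.9 ± 4.23 TPM. Slc7a11 was the lowest in each group, with means of 0.506, 2.15 and 1.95 TPM in control, WT bleomycin and CB1R KO bleomycin. The summed TPM of all 10 members was 448 ± 26.6 in control (SD, n = 4), 449 ± 19.3 in WT bleomycin (SD, n = 5) and 436 ± 12.7 in CB1R KO bleomycin (SD, n = 4), ranges that overlapped. Slc3a2 alone supplied 57.3% ± 1.83 of that sum in control (SD, n = 4).

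**Figure D3:**
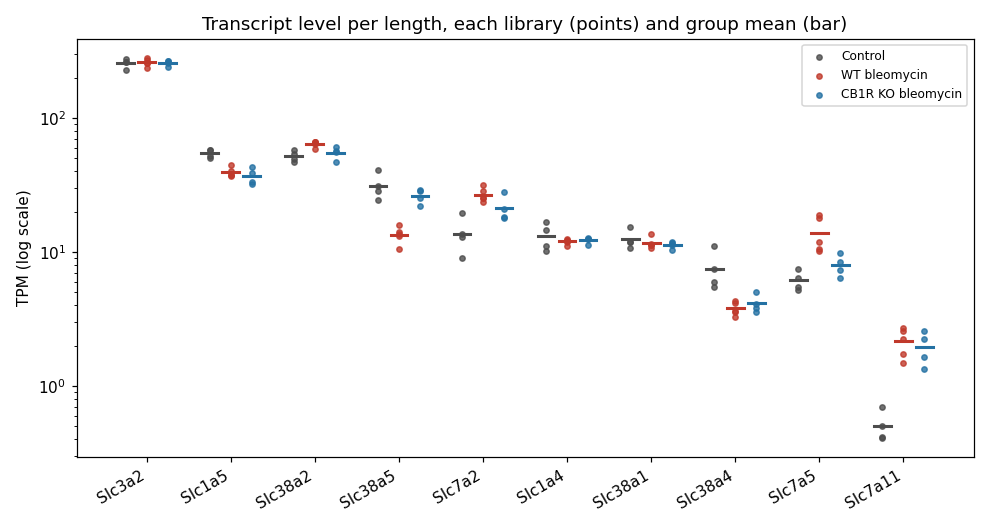
TPM of each member on a log axis, ordered by the control mean, with 1 point per library and a bar at the group mean. Slc3a2 stays near 260 TPM in all groups, Slc38a5 drops in rank in WT bleomycin, and Slc7a11 is the lowest member throughout.

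The level of Slc38a5 also depends on the transcripts that reads were assigned to. Estimated counts per unit of TPM follow the mean length of a gene's assigned transcripts, and were set relative to the gene's mean over the 13 libraries and the median gene of each library. For Slc38a5 this value was 0.861 in Control replicate 21 and 0.838 in CB1R KO replicate 11, 0.961 in WT bleomycin replicate 7 and 0.971 in CB1R KO replicate 10, and between 1.01 and 1.10 in the remaining libraries. Its coefficient of variation of 9.16% was the largest of the 10 members, above 86.7% of 15109 genes, whose median was 1.84%. Slc7a5 and Slc1a5 were at 0.0965% and 0.0335%. TPM of Slc38a5 was 31.2, 40.7, 28.6 and 24.4 in control, 13.6, 13.2, 16, 10.5 and 14.1 in WT bleomycin, and 28.4, 28.9, 22.2 and 25.2 in CB1R KO bleomycin. The low WT bleomycin group and the overlap of CB1R KO with control were seen on both scales. Both scales come from the same reads and the gene was picked on this pattern, so this is a description. The wide gap among the CB1R KO libraries in CPM was narrower in TPM.

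Markers of several lung cell types moved with Slc38a5. The 6 type II cell markers, which label the surfactant-making cells of the alveolus, summed to 29400 to 34200 TPM in control, 17700 to 21200 in WT bleomycin and 22100 to 34100 in CB1R KO bleomycin. Of these, 5 fell in WT bleomycin against control and 2 were higher in CB1R KO than in WT bleomycin (edgeR, adjusted p under 0.05). For all counts of markers here, 25% of all genes were higher and 23.9% lower in WT bleomycin against control. In CB1R KO against WT bleomycin 0.359% were higher and 0.62% lower, and in CB1R KO bleomycin against control 19% and 16.3%. The 10 endothelial markers summed to 2010 to 2490 TPM, 1500 to 1670 TPM and 1650 to 1890 TPM in the same order of groups, with 8 lower and 1 higher in WT bleomycin against control, and 1 higher in CB1R KO than in WT bleomycin. CB1R KO replicates 8 and 9, the higher pair for Slc38a5, had endothelial sums of 1810 and 1890 TPM, and replicates 10 and 11 had 1650 and 1680 TPM. For type II markers CB1R KO replicates 8, 9, 10 and 11 had 30100, 34100, 22100 and 33600 TPM. In the same order Slc38a5 had 32, 33.4, 22.7 and 22.5 CPM, or 28.4, 28.9, 22.2 and 25.2 TPM. The 5 markers of monocyte-derived macrophages went the other way, from 221 to 298 TPM in control to 2670 to 3130 in WT bleomycin and 1730 to 2730 in CB1R KO bleomycin, and all 5 rose in each bleomycin group against control. Fibroblast markers, 6 genes, summed to 523 to 631, 2010 to 2720 and 1460 to 2250 TPM. Erythroid markers, 8 genes, summed to 18600 to 22500, 7930 to 11500 and 9120 to 15800 TPM. Cardiac muscle markers, 5 genes, summed to 602 to 1460, 118 to 432 and 438 to 761 TPM. For type II cells and for cardiac muscle the CB1R KO sums lay above every WT bleomycin library and overlapped control, as Slc38a5 did. The endothelial CB1R KO sums overlapped WT bleomycin and stayed below control. Cycling cell markers, 5 genes, summed to 12.7 to 18.3, 83.8 to 135 and 46.8 to 152 TPM, and all 5 rose in each bleomycin group against control. In WT bleomycin against control, 4 of the 6 fibroblast markers rose and 5 of 7 erythroid markers tested fell. Lower too were 2 of 5 type I cell, 3 of 5 airway, 3 of 4 neutrophil, 3 of 5 T and NK cell, 3 of 5 B and plasma cell and 5 of 5 cardiac muscle markers, with 1 B and plasma cell marker higher and 0 of 4 alveolar macrophage markers passing. Between CB1R KO and WT bleomycin, the 9 lists of these last sentences held 1 call, a T and NK cell marker that was higher in CB1R KO. No marker of any list was under 0.1 TPM in every library. The part of these cells in the transporter values was not tested.

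**Figure D4:**
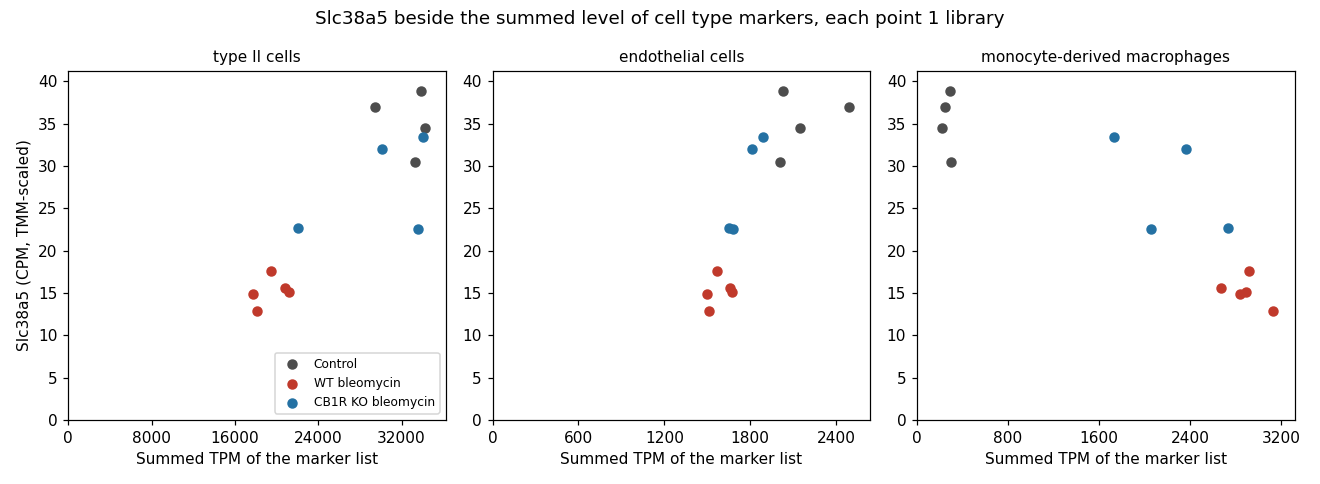
Slc38a5 in CPM (vertical axis) against the summed TPM of type II cell, endothelial cell and monocyte-derived macrophage markers (horizontal axes), 1 point per library, coloured by group. WT bleomycin libraries sit lowest for Slc38a5, at 12.9 to 17.6 CPM, with endothelial sums of 1500 to 1670 TPM.

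The genes whose log2 CPM was most like that of Slc38a5 over the 13 libraries were Mamdc2 (Pearson r = 0.98), Tcta (0.97), Inpp5b (0.95), Fgfr4 (0.95), a receptor for fibroblast growth factors, and Acoxl (0.95), an acyl-CoA oxidase homologue. These correlations describe 13 libraries in 3 groups that differ in level, so they mostly follow the group means. Mamdc2 had mean CPM of 166, 75.7 and 130 in control, WT bleomycin and CB1R KO bleomycin. Fgfr4 had 48.5, 13.3 and 27.6 CPM and Acoxl 49.3, 14.2 and 28.8 CPM, while Tcta (57.2, 41.3 and 49 CPM) and Inpp5b (107, 78.7 and 92.3 CPM) moved over a smaller range. No other transporter of the set was among them.

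The other amino acid transporters of the genome gave a wider view of carriers at the cell surface and lysosome. Of 42 listed, 32 were tested, and in WT bleomycin against control 9 rose, 8 fell and 15 did not pass, beside 25% and 23.9% of all genes that rose and fell, with a median log2 fold change of -0.01, the same as over all genes (edgeR). Slc36a1, a proton-coupled carrier of lysosome and plasma membrane, rose from 41.7 ± 3.72 CPM in control (SD, n = 4) to 69.9 ± 5.14 CPM in WT bleomycin (SD, n = 5; log2 fold change 0.75, adjusted p = 2.28e-06, edgeR). Slc7a8 and Slc7a6, further light chains that pair with Slc3a2, rose by 1.54 (adjusted p = 4.39e-06) and 0.81 (adjusted p = 4.52e-05, edgeR) on the log2 scale. Slc6a9, the glycine carrier GlyT1, fell from 45 ± 1.04 CPM (SD, n = 4) to 23.5 ± 1.11 CPM (SD, n = 5), and Slc7a4 fell by 0.93 on the log2 scale (adjusted p = 3.91e-05, edgeR). In CB1R KO bleomycin against control 8 rose and 5 fell, beside 19% and 16.3% of all genes that rose and fell. Slc36a1 (0.66, adjusted p = 2.62e-05), Slc7a8 (1.27, adjusted p = 7.36e-05) and Slc7a6 (0.61, adjusted p = 0.00123, edgeR) were among the former. Slc6a9 (-0.97, adjusted p = 2.33e-05), Slc7a4 (-0.83, adjusted p = 0.000318) and Slc6a15 (-0.86, adjusted p = 0.00599, edgeR), a carrier of branched-chain amino acids, were among the latter.

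Between CB1R KO and WT bleomycin, 0.359% of all genes were called higher and 0.62% lower. Slc7a10, an exchanger of small neutral amino acids that is known from fat cells and brain, was the transporter of that list called there. Its CPM was 39.8, 30, 32.1 and 26.4 in Control replicates 3, 21, 24 and 26, and 5.19, 3.15, 2.87, 2.84 and 5.68 in WT bleomycin (log2 fold change -3.02, adjusted p = 7.25e-06, edgeR). CB1R KO replicates 8 and 9 had 19.9 and 18.5 CPM and replicates 10 and 11 had 6.09 and 7.25 CPM, so the group lay above WT bleomycin and below control in every library (1.68 with WT bleomycin, standard error 0.35, adjusted p = 0.0379, edgeR). The pair of replicates that was high for Slc7a10 was also high for Slc38a5. Adipocyte markers, 5 genes, summed to 65.4 to 246 TPM in control, 22.6 to 141 in WT bleomycin and 59.1 to 251 in CB1R KO bleomycin, where replicates 8, 9, 10 and 11 had 59.1, 251, 96.8 and 213 TPM. Of the 4 adipocyte markers tested, 2 fell in WT bleomycin against control (median log2 fold change -1.65, edgeR), beside 23.9% of all genes. Between CB1R KO and WT bleomycin 0 of these markers passed (median 1.46, edgeR). Their part in Slc7a10 was not tested. The count of 1 in this list was 0 when Control replicate 24, WT bleomycin replicate 2, 5, 4-B2 or 7, or CB1R KO replicate 8, 9 or 11 was left out, 2 without Control replicate 3 and 3 without CB1R KO replicate 10. It was also 0 with both limma settings, with only the 2 groups compared, with the title style as a term and with only lower-case titles, and 3 with DESeq2, so that it moved in 16 of 24 alternatives. Calls over all genes moved as well, from 150 to 9, 1 and 3 without CB1R KO replicate 8, 9 or 11. They were 24 to 62 without WT bleomycin replicate 2, 5, 4-B2 or 7, and 6 with only lower-case titles. They rose to 653 without CB1R KO replicate 10 and 646 with DESeq2.

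Of 21 targets and partners of Atf4 tested, 11 rose, 2 fell and 8 did not pass in WT bleomycin against control, beside 25% and 23.9% of all genes that rose and fell, with a median log2 fold change of 0.32 against -0.01 over all genes (edgeR). Psat1, an enzyme of serine synthesis, rose 2.93-fold from 10.9 ± 1.01 CPM (SD, n = 4) to 32.1 ± 3.68 CPM (SD, n = 5; adjusted p = 1.94e-07, edgeR). Mthfd2, of mitochondrial one-carbon metabolism, rose 2.99-fold (adjusted p = 5.67e-06), and Aldh18a1, of proline synthesis, rose 2.13-fold (adjusted p = 7.77e-06, edgeR). Atf4 itself had a log2 fold change of 0.02 (adjusted p = 0.86, edgeR). Vldlr, a lipoprotein receptor, fell by 0.78 (adjusted p = 2.14e-05) and Xpot, which exports tRNA from the nucleus, by 0.16 (adjusted p = 0.0326, edgeR). In CB1R KO bleomycin against control 8 rose and 2 fell, beside 19% and 16.3% of all genes that rose and fell. The fold was 2.37 for Psat1 (adjusted p = 4.56e-06), 2.31 for Mthfd2 (adjusted p = 0.000167) and 1.75 for Aldh18a1 (adjusted p = 0.00031, edgeR). The lower pair was Vldlr (-0.33 on the log2 scale, adjusted p = 0.0251) and Ppp1r15a, which reverses the stress block on translation (-0.35, adjusted p = 0.0409, edgeR). Between CB1R KO and WT bleomycin, where 0.359% of all genes were higher and 0.62% lower, Vldlr was the single call of the list (0.45, adjusted p = 0.048, edgeR). Its WT bleomycin libraries had 34.9 to 41.9 CPM, and CB1R KO replicates 8, 9, 10 and 11 had 55.8, 57.6, 42.3 and 52.6 CPM. That count was 0 when Control replicate 24 or 26, WT bleomycin replicate 2, 5, 4-B2 or 7, or CB1R KO replicate 8, 9 or 11 was left out, and 2 without Control replicate 3. It was also 0 with both limma settings, the 2 groups alone, the title style as a term and only lower-case titles, and moved in 15 of 24 alternatives. Calls over all genes ranged from 1 to 653 over the same 24 alternatives, against 150 in the main fit.

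Of 19 genes of glutamine, cystine and arginine use tested, which act on what the members carry, 5 rose, 3 fell and 11 did not pass in WT bleomycin against control (edgeR, median log2 fold change 0.17), shares near or under the 25% and 23.9% of all genes. Nos2, the inducible nitric oxide synthase, which uses arginine, rose from 4.93 ± 1.75 CPM (SD, n = 4) to 20 ± 5.81 CPM (SD, n = 5; adjusted p = 2.22e-05, edgeR). Odc1, the first enzyme of polyamine synthesis, rose by 0.63 (adjusted p = 0.000428) and Gclc, the catalytic subunit of the rate-limiting enzyme of glutathione synthesis, by 0.71 (adjusted p = 0.00059, edgeR) on the log2 scale. Arg1, an arginase, had a log2 fold change of 1.21 (adjusted p = 0.249, edgeR). Glul, which makes glutamine from glutamate, fell by 0.86 (adjusted p = 0.0061), Gpt, an alanine aminotransferase, by 0.89 (adjusted p = 0.000109) and Ggt1, which breaks down extracellular glutathione, by 1.21 (adjusted p = 0.000285, edgeR). Against control, CB1R KO bleomycin lungs had 3 higher (Nos2, Gclc and Chac2, a glutathione-degrading enzyme, at 1.62, 0.54 and 0.53 on the log2 scale) and 3 lower (Ggt1, Gpt and Glul at -1.29, -0.56 and -0.80). Of all genes, 19% were higher and 16.3% lower in that comparison. Between CB1R KO and WT bleomycin, 0 of the 19 passed edgeR's test, and DESeq2 called 2, with 4.22% of all genes called.

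Of 22 components of amino acid sensing by mTORC1 tested, 8 rose, 5 fell and 9 did not pass in WT bleomycin against control, beside 25% and 23.9% of all genes that rose and fell, with a median log2 fold change of 0.10 (edgeR). With only the libraries of lower-case titles 7 passed, and 37.2% of all genes did. Of the sestrins, stress-induced proteins that restrain mTORC1, Sesn3 rose by 0.62 (adjusted p = 3.24e-05), Sesn2, listed here with the Atf4 genes, rose by 0.46 (adjusted p = 0.015), and Sesn1 fell by 0.80 on the log2 scale (adjusted p = 4.03e-06, edgeR). Lamtor1 of the Ragulator complex and the GTPase Rragc rose by 0.39 (adjusted p = 0.000276) and 0.30 (adjusted p = 0.000559, edgeR), and Flcn and the GTPase Rragb fell by 0.44 (adjusted p = 0.0011) and 0.89 (adjusted p = 0.00364, edgeR). CB1R KO bleomycin against control had 5 higher and 4 lower, beside 19% and 16.3% of all genes. Sesn3 (0.68), Rragd (0.81) and Rragc (0.26) were among the higher and Sesn1 (-0.49), Flcn (-0.36) and Mtor (-0.18) among the lower. Between CB1R KO and WT bleomycin, 0 of the 22 passed edgeR's test, and DESeq2 called 2, again beside 4.22% of all genes.

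**Figure D5:**
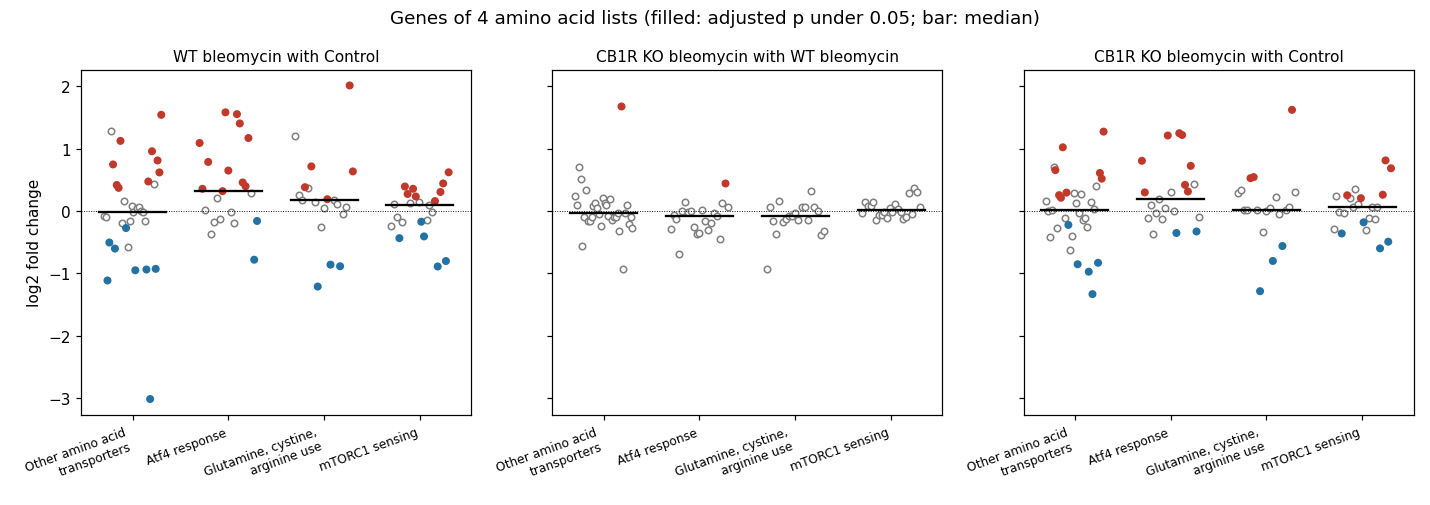
Log2 fold changes of the genes tested in 4 lists (other amino acid transporters, Atf4 response, glutamine, cystine and arginine use, mTORC1 sensing) for 3 comparisons. Filled points passed an adjusted p of 0.05 (red higher, blue lower), open points did not, and the bar is the list's median; the middle panel has 2 filled points, Slc7a10 and Vldlr.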

How the data were processed

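The authors prepared NEBNext Ultra II libraries from poly(A) RNA, quantified the reads with Kallisto on the mouse reference of Ensembl release 105 (GRCm39), and summed its values per gene over protein-coding transcripts. The deposited tables hold the authors' estimated counts, which are not normalized, and the authors' TPM, which is scaled for length and depth. Of the count values, 64.8% were farther than 0.001 from a whole number. A TPM column of 1 sample not listed was not used.

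Counts were rounded, filtered with filterByExpr and, with TMM factors, fitted in edgeR 4.0.16 under R 4.3.3 (glmQLFit and glmQLFTest, quasi-likelihood), all 13 libraries in 3 groups, with Benjamini-Hochberg adjustment over 15315 genes at 0.05. Over all genes, log2 fold changes had a median standard error of 0.11 to 0.12. The procedure was tested on simulated data. The changes set there were all larger than those of the members between CB1R KO and WT bleomycin, so smaller changes were not covered. The alternatives were other filters and normalizations, DESeq2 1.42.0, limma 3.58.1 on log2(TPM + 1) and log2(TPM + 0.1), only the 2 groups compared, the style of the titles, CB1R KO replicate 11 thinned, and each library left out.

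The members, 4 gene lists and 14 marker lists were chosen with earlier results of these data known. Named genes were the 10 members, up to 3 genes per direction, list and comparison with the lowest p among those called, and the 5 genes most like Slc38a5. Atf4 and Arg1 were named after their values were seen, and Sesn2 was also named outside this rule. Promoters came from a RefSeq table of GRCm38.p6, another build than that of the files. Figures were drawn with matplotlib 3.10.9.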

Additional observations from a re-analysis of the deposited data

Results flagged for a closer look

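Of 30 sets of values (10 members in 3 groups), 1 held a library far from the others. Slc3a2 had 223 CPM in CB1R KO bleomycin replicate 10, against 250 to 255 CPM in the other CB1R KO libraries, a gap of 0.838 of the group's range on the log2 scale. Chance sets apart about 1 in 20 such groups. The same library had the highest Slc7a5 and Slc7a2 of the CB1R KO group, at 22.3 and 123 CPM, and the lowest sum of type II cell markers of that group, at 22100 TPM.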

How the results depend on the processing

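The 24 alternatives and 30 differences (10 members in 3 comparisons) gave 720 values. Of these, 695 were counted as unchanged, 5 newly passed the threshold and 20 turned sign. For the tested members, unchanged means the same direction and the same side of the threshold. The 695 include every value of Slc38a5, which was not tested and has no side of a threshold. Its values kept their direction, and they describe the gene that the set was chosen by. The number of members called in WT bleomycin with control was 6 throughout, and in CB1R KO bleomycin with control 3 to 4, the additional call being Slc7a2 with both limma settings and without Control replicate 21. In CB1R KO with WT bleomycin the count of 0 became 1, Slc7a5, with DESeq2, and was 0 to 1 over the left-out libraries, with 1 without CB1R KO replicate 10; adjusted p of Slc7a5 was 0.00471 to 0.328 over the alternatives. The values that turned sign were all near 0 and in no case past the threshold. They were Slc3a2 in WT bleomycin with control at 0.03 with limma on log2(TPM + 1) and on log2(TPM + 0.1) (values of 0.0298 and 0.0299), and -0.0937 to 0.0268 over the left-out libraries. Slc1a4 in CB1R KO with WT bleomycin was 0.0239 and 0.0257 with limma and 0.0048 with CB1R KO replicate 11 thinned, and -0.0387 to 0.0251 over the left-out libraries. Slc3a2 in that comparison was 0.0052 with the title style as a term, and Slc38a4 was -0.0763 to 0.0701 over the left-out libraries. In CB1R KO bleomycin with control, Slc38a2 was -0.0007 with RLE, -0.0155 with upper-quartile normalization, -0.0012 with DESeq2 and -0.0519 to 0.0779 over the left-out libraries, and Slc3a2 was 0.0127 with both limma settings. The cause was not tested.

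In CB1R KO with WT bleomycin, list calls ranged from 0 to 3 for other transporters, 0 to 2 for Atf4 genes, and 0 to 2 for each of both other lists. Calls over all genes in that comparison ranged from 1 to 653, against 150 in the main fit. In WT bleomycin with control the list calls ranged from 14 to 19, 10 to 14, 8 to 10 and, for mTORC1 sensing, 7 to 14, where 7 came with only the lower-case titles, which leave fewer samples. Calls over all genes there ranged from 5701, also with only lower-case titles, to 7753, against 7492 in the main fit. Slc38a5, untested, kept its direction throughout, at -1.28 to -1.14, 0.75 to 0.96 and -0.46 to -0.23. No paired analysis was possible because the groups share no replicate numbers. With 4 or 5 libraries a group, changes near the standard error of 0.11 were not detectable, and the lowest member, Slc7a11, rested on 41.4 counts in its lowest library.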
